A study of Rattus norvegicus with 20 samples.

Results

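The tachykinin family was followed in the central nucleus of the amygdala through 4 genes, the peptide precursors Tac1 and Tac3 and the receptors Tacr1 and Tacr3. Members were the probe sets that the array's annotation gives to exactly 1 of these symbols. This rule took 5 probe sets of 31042 (controls left out) and 4 genes of 14217, and it used no measured value. The genes themselves were chosen with earlier results of these data known. Tac1 (1369309_a_at), Tac3 (1387138_at) and Tacr3 (1368752_at) had 1 probe set each. Tacr1 had 2, of which the brighter over all 20 arrays (1387474_at) gives the main value. All animals were alcohol-preferring (P) rats, which were selected over generations for drinking alcohol by choice. In the ethanol group 10 animals could drink ethanol at 15% and 30% during adolescence, and the water group of 10 animals was given water alone. Each animal gave 1 array of total RNA from this nucleus. The sources used here give neither the amount drunk nor the sex or the age in days. The p-values below measure the spread between these animals.

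Tachykinins are short peptides that share a C-terminal sequence and are cut from larger precursors. Tac1 encodes substance P and neurokinin A, and Tac3 (named Tac2 in the mouse) encodes neurokinin B. Their receptors couple mainly to Gq proteins and raise calcium inside the cell. Substance P prefers the receptor encoded by Tacr1, and neurokinin B prefers that of Tacr3. In rodents the Tac3 peptide marks neurons of the central amygdala that take part in fear learning, while Tac1 is widely used by striatal and amygdalar neurons.

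RefSeq (build GRCr8) places Tac1 on chromosome 4 (36645344 to 36653548), Tacr1 on the same chromosome (116478617 to 116647492), Tac3 on chromosome 7 (65447817 to 65454427) and Tacr3 on chromosome 2 (225940497 to 226037756). RefSeq lists 4 curated transcripts of Tac1, and the array gives 1 value for them together. The promoter table held 3 of the 4 members, without Tac3. The 150 bases before the listed start are shown to compare the receptors with Tac1, 5′ to 3′ on the plus strand. Capitals mark 3 motifs, searched on both strands. The first is TGACG, the core of the cAMP response element, which reads CGTCA on the other strand. The second is the TATA box, searched as TATAAA. The third is the E-box CACGTG. No match overlapped another.
Tac1, chr4:36645433-36645582: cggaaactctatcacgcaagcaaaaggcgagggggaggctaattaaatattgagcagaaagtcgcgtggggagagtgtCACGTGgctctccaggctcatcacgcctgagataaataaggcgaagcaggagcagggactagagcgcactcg
Tacr1, chr4:116478467-116478616: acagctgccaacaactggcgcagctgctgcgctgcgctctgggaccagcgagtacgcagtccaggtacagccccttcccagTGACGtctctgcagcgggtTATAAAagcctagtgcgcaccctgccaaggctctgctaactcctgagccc
Tacr3, chr2:225940347-225940496: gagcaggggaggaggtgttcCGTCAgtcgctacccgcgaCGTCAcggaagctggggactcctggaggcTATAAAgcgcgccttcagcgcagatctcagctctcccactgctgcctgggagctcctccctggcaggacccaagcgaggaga
The Tac1 window lies inside the span of the annotated gene, since its transcripts begin at different places. Both receptor windows held a TATA box and at least 1 cAMP core. The Tac1 window held an E-box and neither of the others. The TGACG core began 69 bases before the start of Tacr1, and 130 and 111 bases before that of Tacr3. The TATAAA match began 50 bases before the start of Tacr1 and 82 bases before that of Tacr3. Among 33469 windows of the same length, the cAMP core occurred in 13.4%, the TATA box in 8.0% and the E-box in 3.74%. A match is a description of these letters and no evidence of binding.

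Array medians ran from 7.92 to 7.97 and pairs of arrays correlated at 0.977 to 0.997. Ethanol animal 5 and water animals 15 and 18 correlated least with the others. Of 16 markers of central amygdala neurons 15 passed the filter on low values, which was a mean above log2 7.14 over all arrays, and Calcrl did not. Prkcd, Crh, Sst, Nts, Penk and Pdyn were among those that passed. Of 12 measured markers of the hypothalamus and habenula, regions that also make Tac3 or Tac1, 10 lay below the filter, Pomc, Hcrt, Oxt and the habenular Pou4f1 and Chrnb4 among them. The other 2 passed it, Gal with means of 9.58 with ethanol and 9.55 with water, and Avp with 8.07 and 7.80. All 14 measured striatal markers passed too, as did 7 of 9 cortical and basolateral and 4 of 6 cholinergic markers. Of all 14217 genes 10159 passed, so passing the filter does not by itself show that a cell type was present. The cortical and basolateral score (mean of 7 genes) ran from 8.82 to 10.48 with ethanol and from 8.73 to 10.55 with water. The oligodendrocyte score (mean of 11 genes) was lower with ethanol by 0.36, at 11.03 to 12.62 against 11.72 to 12.86 in water animals. The choroid plexus score (4 genes) ran from 6.43 to 11.46 with ethanol and from 6.86 to 11.88 with water, and was lower by 1.42 on average. All 11 oligodendrocyte and all 4 choroid plexus genes had the lower mean with ethanol. All 14 striatal and all 10 pan-neuronal genes had the higher mean, with median differences of 0.17 and 0.11. Over all 10159 tested genes, 5758 had the higher mean with ethanol and 4401 the lower. Of 10 astrocyte genes 9 had the lower mean with ethanol, and their score was 12.27 ± 0.09 (12.14 to 12.38) against 12.38 ± 0.08 (12.24 to 12.47) in water animals (SD, n = 10 per group). Gfap was at -0.51 (SE 0.17; limma adjusted p = 0.284) and Aldh1l1 at -0.28 (SE 0.096; limma adjusted p = 0.295). The part of these cell type markers in the differences below was not tested, apart from the fits with a score as a covariate. In such tissue samples fewer cells of a type and less RNA per cell cannot be told apart.

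None of the 4 members differed between ethanol and water animals past limma's adjusted p of 0.05, a threshold that 0.0215% of the 18625 tested probe sets passed. Tac3 spanned 5.33-fold over the 20 animals, Tac1 4.05-fold, Tacr1 3.23-fold and Tacr3 2.04-fold. The within-group SD of Tac3 was 0.65 on the log2 scale, larger than that of 99.2% of tested probe sets, against a median of 0.14 over all of them. Tac1 had an SD of 0.45, Tacr1 0.36 and Tacr3 0.23, and the Tacr3 group difference (0.22) was close to its SD.

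Tac1, the precursor of substance P, ran from 9.65 through a median of 10.76 to 11.07 in ethanol animals and from 10.15 through 10.55 to 11.66 in water animals. The groups overlapped over most of their range. Ethanol animals 3 (9.65) and 8 (9.93) lay below every water animal, and water animal 16 lay above all others. Its mean log2 value was 10.54 ± 0.46 with ethanol and 10.64 ± 0.45 with water (SD, n = 10 per group). The difference was -0.09 (SE 0.19; 95% interval -0.48 to 0.30; limma adjusted p = 0.859; permutation p = 0.654). As a ratio the interval runs from 0.715 to 1.23. Within the runs of the accession order, which hold 4, 4 and 2 animals per group and which no label calls a batch, it was -0.07, -0.29 and 0.25. Without ethanol animal 3 or water animal 16 the sign turned, to 0.0061 and 0.021. With the oligodendrocyte score as a covariate it was 0.020.

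Tac3, the precursor of neurokinin B, ran from 10.22 through a median of 11.29 to 11.92 with ethanol and from 9.5 through 11.19 to 11.67 with water. Water animals 13, 15 and 16 (9.92, 10.21 and 9.5) formed the low end and lay below every ethanol animal, while the other water animals shared the range of the ethanol group. The means were 11.16 ± 0.52 and 10.90 ± 0.76 (SD, n = 10 per group). Their difference of 0.26 (SE 0.27; 95% interval -0.30 to 0.82) did not pass the test (limma adjusted p = 0.692; permutation p = 0.386). The interval covers ratios from 0.812 to 1.76. By run it took both signs, at 0.56, 0.45 and -0.73. With the striatal score as a covariate it was 0.40, and with the oligodendrocyte score 0.17. Leaving out water animal 16 gave 0.10, water animal 13 gave 0.15 and ethanol animal 6 or water animal 15 gave 0.17 and 0.18.

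**Figure D1:**
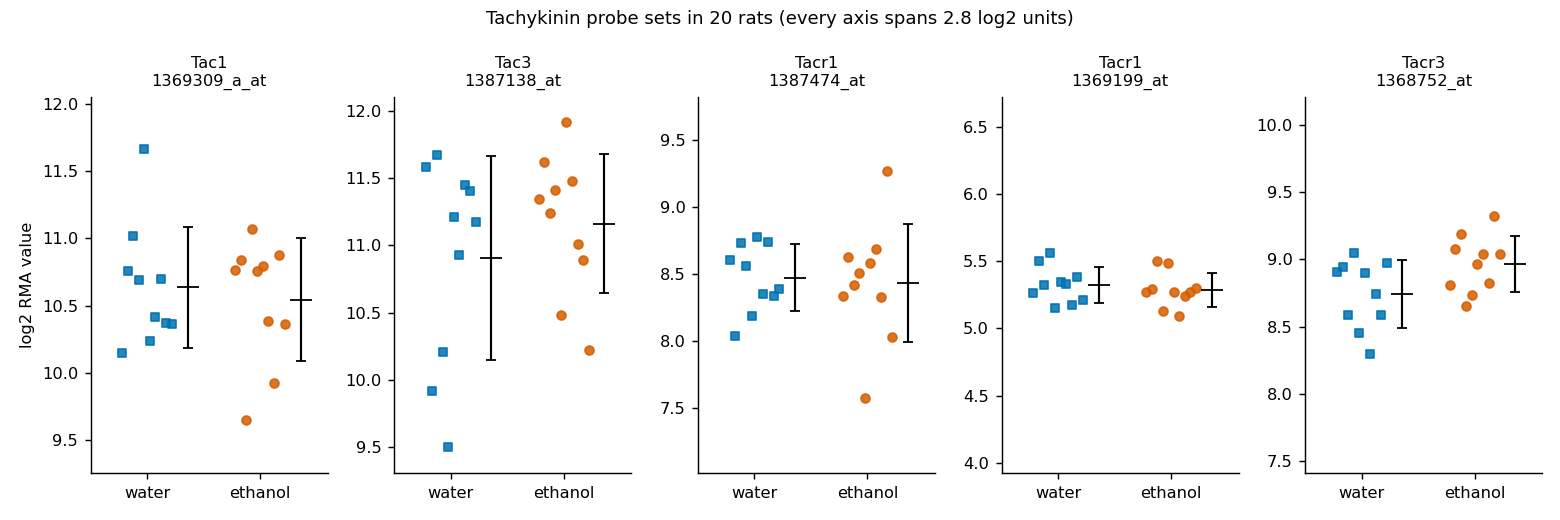
Each point is the log2 value of 1 rat (squares water, circles ethanol), and the bar beside each group is the mean ± SD of 10 rats; every vertical axis spans the same number of log2 units. Tac3 reaches from 9.5 to 11.92, and in every panel the groups overlap.

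Tacr1 encodes the receptor that substance P prefers. Its main probe set ran from 7.57 through a median of 8.46 to 9.27 with ethanol and from 8.04 through 8.48 to 8.77 with water. The highest and the lowest of all 20 animals were both ethanol animals, 9 at 9.27 and 5 at 7.57. Means were 8.44 ± 0.44 and 8.47 ± 0.25 (SD, n = 10 per group), a difference of -0.04 (SE 0.15; 95% interval -0.34 to 0.27; limma adjusted p = 0.939; permutation p = 0.834). The sign turned without ethanol animal 5 (0.060) or ethanol animal 10 (0.0095). Without ethanol animal 9 the difference kept its sign, at -0.13. By run it was -0.01, -0.22 and 0.29. The second probe set (1369199_at) had a mean of 5.31, below the filter, and lay between 5.09 and 5.56 in all animals. With no filter it differed by -0.04 (SE 0.06; limma adjusted p = 0.851).

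Tacr3, which encodes the neurokinin B receptor, had the smallest p-value of the members and stayed above the threshold once adjusted over all probe sets. It ran from 8.65 through a median of 9.0 to 9.33 with ethanol and from 8.30 through 8.82 to 9.04 with water. Ethanol animals 2, 3 and 9 lay above every water animal, and water animals 14, 16, 18 and 20 below every ethanol animal. The remaining animals overlapped. The means were 8.97 ± 0.21 and 8.74 ± 0.25 (SD, n = 10 per group). Of the ethanol animals, 8 of 10 exceeded the water mean. The difference was 0.22 (SE 0.098; 95% interval 0.02 to 0.43), or 1.17-fold, with a limma adjusted p of 0.360. Unadjusted, limma gave p = 0.0331 and permutation p = 0.0445. That made 1 of the 4 members with an unadjusted p under 0.05, against 12.8% of all tested probe sets (7.37% higher with ethanol and 5.48% lower). By p it ranked 1705 among the 18625. Its difference had the same sign in the 3 runs, at 0.06, 0.29 and 0.41. With array quality weights it was 0.14, and with the oligodendrocyte score as a covariate 0.17 (limma adjusted p = 0.422 and 0.523). Over all other settings and with single animals left out, limma's adjusted p ran from 0.261 to 0.519.

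**Figure D2:**
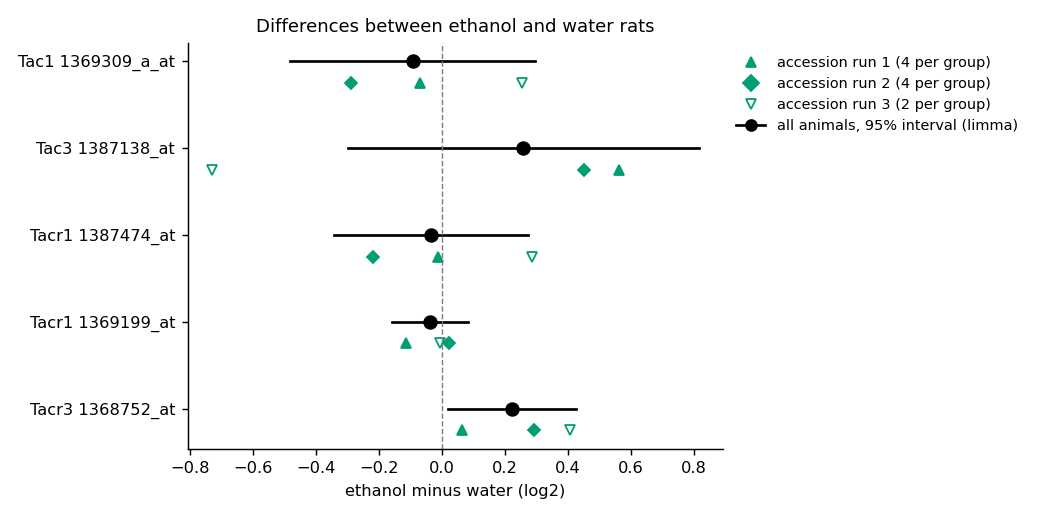
Black points are ethanol minus water in log2 units over all 20 rats with limma's 95% interval; green symbols are the difference within each run of the accession order, open where a run holds 2 rats per group. The Tacr3 interval of 0.02 to 0.43 lies above 0, while the other intervals include it. The intervals are not adjusted over the probe sets tested, and limma's adjusted p for Tacr3 was 0.360. Tac3 takes both signs across runs.

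Of the remaining tachykinin genes, Tacr2 (the receptor that neurokinin A prefers) had a mean of 4.67 with a range of 4.39 to 4.97, below the filter, and Tac4 was not matched by the annotation. Genes that make, degrade or relay the peptides did not pass limma's adjusted threshold either. Among 9 tested genes of peptide processing, 7 had means above and 2 below those of water animals, and the median difference was 0.06. Scg5, the chaperone of the convertase Pcsk2, was at 0.09 (SE 0.037; limma adjusted p = 0.329). Chga was at 0.13 and Pcsk1n, a convertase inhibitor precursor, at 0.07. Over all 10159 genes 5758 were higher and 4401 lower, and the median difference was 0.01.

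Of 5 tested peptidases, 3 were higher and 2 lower with a median of 0.05, among them Ace at -0.28 (SE 0.39) and Thop1 at 0.06. Mme, which encodes neprilysin and degrades substance P, lay below the filter. Of 11 genes of Gq and calcium signalling, 8 were higher and 3 lower with a median of 0.11. Gna11, a Gq-family alpha subunit, was at 0.15 (SE 0.048; limma adjusted p = 0.286), and the phospholipase Plcb1 at 0.11 (SE 0.043; limma adjusted p = 0.320). Prkcb was at 0.17 and Plcb3 at -0.08. Of 6 genes of receptor desensitisation 5 were higher and 1 lower with a median of 0.03, with the arrestin Arrb2 at 0.10 and the receptor kinase Grk2 at 0.08.

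Covariation among animals was then measured on deviations from the group means, over 20 animals. The 5 genes nearest to Tac3 among 10158 were Ubash3b (r = 0.952), Gpc4 (0.948), Nts (0.935), Resp18 (0.914) and Bcat1 (0.908). Nts encodes neurotensin, Gpc4 a glypican of the cell surface, Resp18 a protein of the secretory pathway and Bcat1 a transaminase of branched-chain amino acids. Within the ethanol group the r of these genes was 0.928, 0.975, 0.882, 0.857 and 0.942, and within the water group 0.968, 0.941, 0.959, 0.945 and 0.892. At r above 0.8 there were 61 genes for Tac3, 2 for Tacr1 and 0 each for Tac1 and Tacr3. The lowest values for Tac3 were those of Nectin3 (-0.863), Spry2 (-0.849) and Rasgef1b (-0.843). None of these 8 genes differed between ethanol and water animals past limma's adjusted threshold, and their differences lay between -0.06 and 0.17. All genes of 1 animal share its dissection and its array, and these correlations carry no test.

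Among the central amygdala markers, Prkcd (r = 0.886), the stress peptide Crh (0.878), Sst (0.859) and Pdyn (0.835) ranked within the first 38 genes for Tac3. Prkcd, a kinase, and Sst, a peptide, mark separate neurons of the lateral part of the nucleus. Penk, also abundant in the central amygdala, did not follow Tac3 (0.009). Among the other markers of the list, Gad1 (0.238), Gad2 (0.342) and Slc32a1 (0.363) had lower values. Ezr was at -0.074 and Tshz1 at -0.487. Outside this list, Npy (-0.652) and the dopamine receptor Drd1 (-0.525) ran the other way, while the dopamine receptor Drd2 was at 0.123. Of the 15 central amygdala markers past the filter, 13 had a positive r, 7 exceeded 0.6, and the median was 0.462. Over all 10158 genes, 535 exceeded 0.6 with Tac3 and the median r was 0.056. The median over the 14 striatal markers was -0.412, with Foxp1 at -0.680, Rarb at -0.678 and, on the opposite side, Bcl11b at 0.654.

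**Figure D3:**
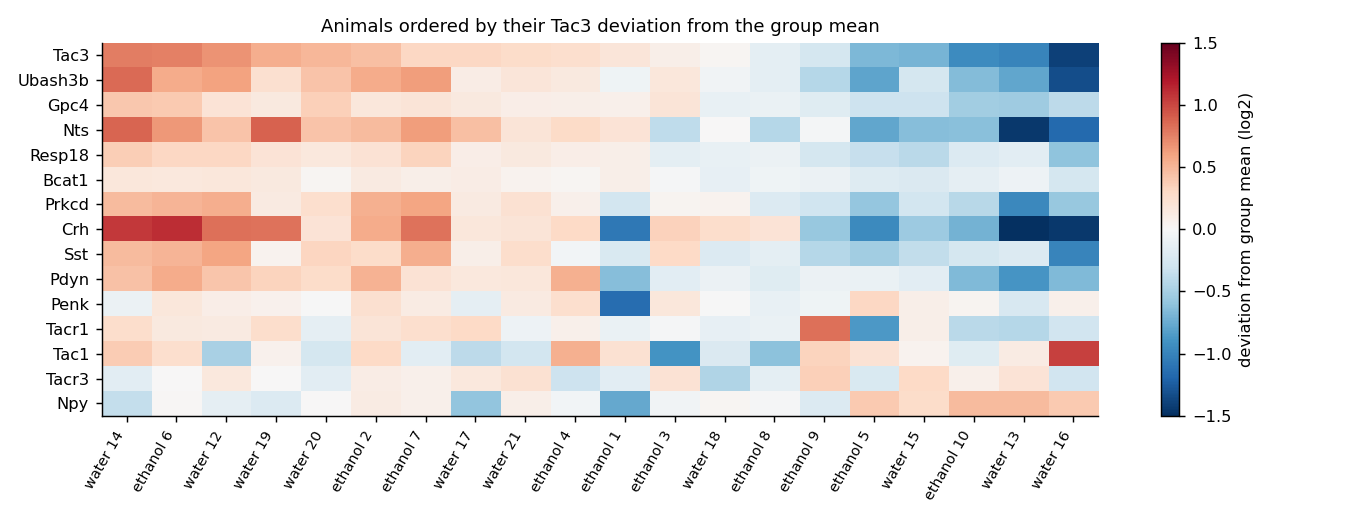
Rows are genes and columns the 20 rats, ordered by the deviation of Tac3 from the mean of the rat's own group, and the colour is each gene's deviation in log2 units. Ubash3b, Gpc4, Nts, Resp18, Bcat1, Prkcd, Crh, Sst and Pdyn fade from red to blue along with Tac3, from water animal 14 (0.77) to water animal 16 (-1.4), while Penk, Tac1 and Tacr3 do not.

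The score of the 15 central amygdala markers, which holds no tachykinin gene, gave r = 0.90 and rho = 0.929 with Tac3 over 20 animals. Each had a permutation p of 1e-05, the smallest that 100000 resamples can give, and 0.0004 when adjusted over 40 relations of the 4 members with 10 marker scores. No other of the 40 relations passed. Members and lists were chosen with earlier results of these data known, and the adjustment does not cover that choice. Without the 2 animals with the most extreme scores r was 0.821 (permutation p = 2e-05), and without the 3 arrays that correlate least it was 0.902. It was 0.783 in ethanol and 0.975 in water animals. The score accounted for 81% of the within-group variance of Tac3, and with the score as a covariate the ethanol difference of Tac3 was 0.15 (SE 0.12; limma adjusted p = 0.627). The score itself was 11.42 ± 0.24 with ethanol and 11.37 ± 0.29 with water (SD, n = 10 per group). As a plain mean of log2 values it follows markers of large spread more than others. The SD of Crh was 0.77 with ethanol and 0.91 with water, and that of Gad1 0.05 and 0.12. Tac3 had r = -0.520 with the choroid plexus score and -0.414 with the striatal score (permutation adjusted p = 0.260 and 0.435). The part of these cell type markers in the relation was not tested.

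Tac1, Tacr1 and Tacr3 did not share this relation at the adjusted threshold. Their r with the central amygdala score was -0.275, 0.481 and 0.10 over 20 animals (permutation adjusted p = 0.562, 0.260 and 0.808). For Tacr1 rho was 0.620 (permutation adjusted p = 0.114), and r was 0.347 in ethanol and 0.759 in water animals. The score accounted for 7.56%, 23.1% and 1.0% of their within-group variance. Against the striatal score Tac1 had r = 0.311 and rho = 0.392 (permutation adjusted p = 0.464 and 0.449). Without the 2 animals of most extreme striatal score r was 0.689 (unadjusted permutation p = 0.00178), so this value turned on those animals. Tac1 and the cortical score had r = -0.187 over 20 animals (permutation adjusted p = 0.704), with -0.763 in ethanol and 0.323 in water animals. With the local interneuron score Tac1 had r = -0.362 (permutation adjusted p = 0.464), with -0.813 in ethanol and 0.364 in water animals. Neither difference between the groups was tested.

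**Figure D4:**
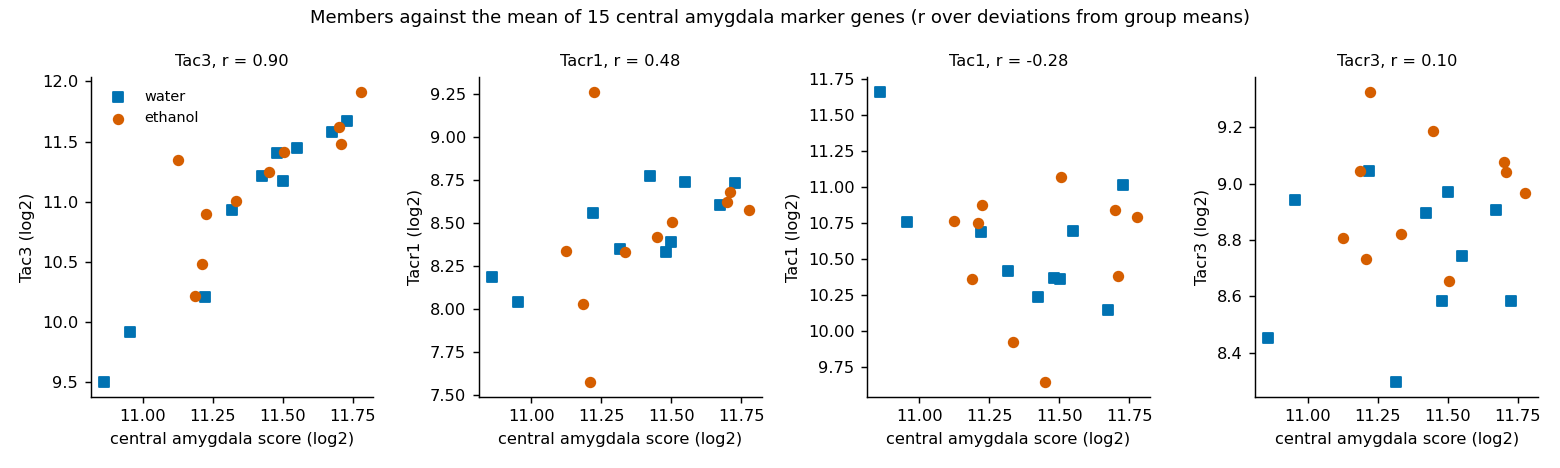
Each panel sets the log2 value of 1 gene against the mean log2 value of 15 central amygdala marker genes in 20 rats (squares water, circles ethanol); r is over deviations from the group means. Tac3 rises along the score with r = 0.90, Tacr1 follows it less closely (0.481), and Tac1 (-0.275) and Tacr3 (0.10) scatter.

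The genes nearest to Tac1 were Tpbg (r = 0.765), a membrane glycoprotein, the fucose transporter Slc35c1 (0.721), the guidance cue Ntn1 (0.711), LOC102554253 (0.706) and Eif1ad (0.674). Slc9a2 (-0.681), B3gat1 (-0.662) and Nufip1 (-0.661) were lowest. Drd1, carried by striatal neurons that also make substance P, was at 0.391 with Tac1, and the striatal Rasd2 at 0.634. Drd2 was at 0.191. Of the 14 striatal markers 13 had a positive r with Tac1, with a median of 0.309. Among the 15 central amygdala markers 4 did, with a median of -0.117. The median r with Tac1 over 10158 genes was 0.035.

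Tacr1 was nearest to the transcription factor Pou3f1 (r = 0.869), followed by Tpgs2 (0.804), Rbms3 (0.795), the GABA-A receptor subunit Gabrb2 (0.762) and the semaphorin Sema3c (0.736). Bin3 (-0.786), Ccdc65 (-0.781) and Drc1 (-0.770) were lowest, and Ccdc65 and Drc1 encode parts of motile cilia. The choroid plexus and ependyma score had r = -0.639 and rho = -0.532 with Tacr1 (permutation adjusted p = 0.0642 and 0.212). Without the 2 animals of most extreme choroid score r was -0.460. Chat, the marker of cholinergic neurons, a cell type that carries this receptor in striatum and basal forebrain, had r = 0.435 with Tacr1. The 95th percentile of r with Tacr1 over 10158 genes was 0.452. The cholinergic score had r = 0.458 with Tacr1 (permutation adjusted p = 0.435). Nos1 lay below the filter.

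For Tacr3 the nearest genes were Adam4 (r = 0.742), Zfp655 (0.733), Epc2 (0.733), Nkain3 (0.732) and Dnajb14 (0.728), and the lowest were Prpsap1 (-0.750), Rai14 (-0.728) and Pcsk7 (-0.723). Of the 15 central amygdala markers past the filter 12 had a positive r with Tacr3, 0 exceeded 0.6 and the median was 0.136. Over all 10158 genes, 47 exceeded 0.6 and the median was -0.035. The 15 markers ran from Ezr (-0.444) to the imprinted Dlk1 (0.568). Its ligand's gene Tac3 had r = 0.003 with it.

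**Figure D5:**
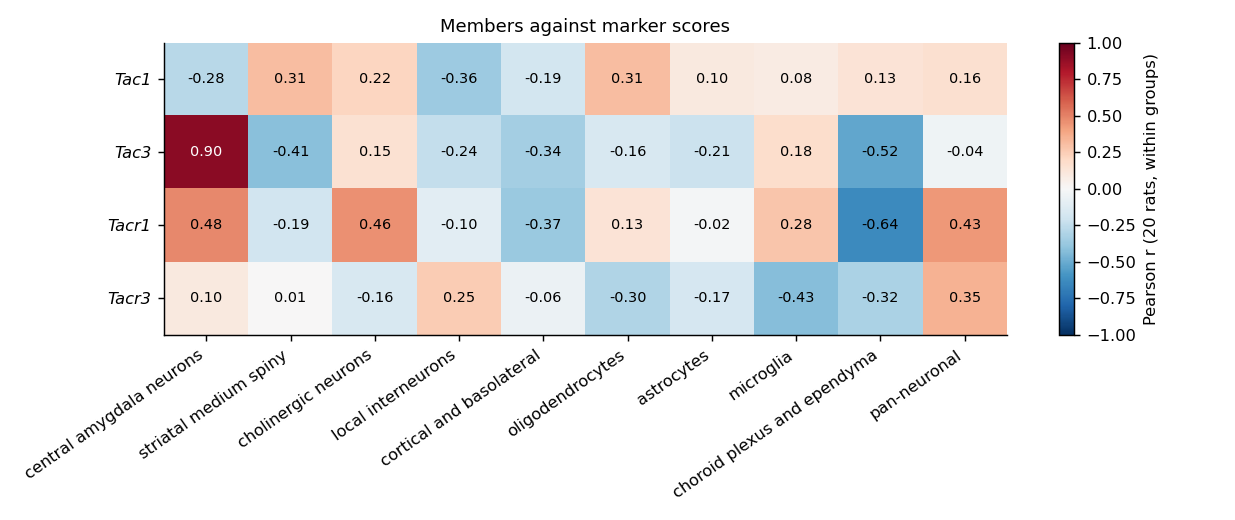
Rows are the 4 genes, columns the marker scores, and each cell is Pearson's r over the deviations of 20 rats from their group means. Tac3 with the central amygdala score (0.90) is the darkest cell; Tacr1 with choroid plexus and ependyma is at -0.64.

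Among the members themselves 18 correlations were computed, over the 6 pairs in all animals and in each group, and 0 passed once adjusted over the 18 (3 had an unadjusted permutation p under 0.05). Tac3 and Tacr1 gave the largest r over 20 animals, 0.533 with rho = 0.606 (permutation p = 0.00829 and 0.00689, adjusted 0.149 and 0.124). Without water animals 13 and 16 it was 0.428 (unadjusted permutation p = 0.0964), so it rested in part on those animals. By group r was 0.502 in ethanol and 0.702 in water animals. Without the 2 animals of most extreme Tac3 in each group these became -0.279 and 0.274. Without ethanol animal 9, which combines the highest Tacr1 with a Tac3 of 10.90, it was 0.728 (permutation adjusted p = 0.00792). Taken as deviations within each run and group it was 0.717 (permutation adjusted p = 0.0018). With the second Tacr1 probe set it was -0.292.

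The peptide genes Tac1 and Tac3 had r = -0.290 and rho = -0.063 (permutation p = 0.228 and 0.792), and without ethanol animal 3 and water animal 16 r was 0.050. In water animals r was -0.633 and rho -0.345 (permutation p = 0.0447 and 0.331, adjusted 0.210 and 0.542), and in ethanol animals r was 0.189. Water animal 16 had the highest Tac1 and the lowest Tac3, and without it r over all animals was 0.018. Within the water group r was -0.700 without animals 14 and 16. Whether the groups differ in this relation was not tested. The receptors Tacr1 and Tacr3 had r = 0.418 and rho = 0.352 (permutation adjusted p = 0.210 and 0.368), and without ethanol animals 5 and 9 r was 0.150. Tac1 with Tacr1, its receptor pair, gave r = -0.004 and rho = 0.107, and Tac1 with Tacr3 gave r = -0.324 and rho = -0.346 (permutation adjusted p = 0.453 and 0.368). Without ethanol animal 3 and water animal 16 the r of Tac1 with Tacr3 was -0.051.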

How the data were processed

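The authors' deposited log2 values come from RMA (robust multi-array average), per the submitters' processing notes. The sources used here give no RMA version. RMA equalises the distribution of values across arrays, so a shift shared by all genes would not be seen. The values ran from 3.82 to 16.16, from which the log base was taken. The group difference (ethanol less water) came from limma 3.58.1 in R 4.3.3 on 18625 probe sets with a mean above the 40th percentile (log2 7.14), two-sided, with Benjamini-Hochberg adjustment over all of them. Permutation tests were two-sided with 100000 resamples, for correlations within groups (Python 3.11.15, numpy 2.4.6, scipy 1.17.1). Scores are means over 1 probe set per gene, the brightest. For each member the 5 genes of highest and the 3 of lowest r were named, in each list up to 4 genes of smallest p, and Penk, Pdyn, Sst, Crh, Prkcd, Npy, Nos1, Drd1, Drd2 and Chat. Other marker genes named with an r were chosen after their values were seen. Members and lists were chosen with earlier results of these data known. The limma fit and the correlations were tested on simulated data. The number of arrays limits precision.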

Additional observations from a re-analysis of the deposited data

How the results depend on the processing

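No member passed limma's adjusted threshold under any of the settings run. Tac3 and Tacr3 stayed higher with ethanol under all of them, at 0.15 to 0.40 and 0.14 to 0.23, and when single animals were left out at 0.10 to 0.36 and 0.17 to 0.26. Tac1 ran from -0.15 to 0.021 and Tacr1 from -0.13 to 0.060 with single animals left out. Tac1 turned sign with the oligodendrocyte score as a covariate (0.020). Tacr1 turned sign with array weights (0.0013), the striatal score (0.00056), the oligodendrocyte score (0.0032) and without the 3 arrays that correlate least (0.056). The count of called probe sets, 4, was 2 with the filter at the 60th percentile, 23 with array weights, 1 with the striatal and 0 with the oligodendrocyte score in limma (2380 at an unadjusted p under 0.05). Without single animals it was 1 to 8: 1 without ethanol animal 6 or water animal 14, 16, 17 or 18, 2 without ethanol animal 3, and 8 without water animal 20.

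Tac3 with Tacr1 was 0.717 within group and run, past the adjusted threshold, -0.292 with the second Tacr1 probe set, and 0.475 to 0.728 without single animals. Tac1 with Tac3 reversed to 0.050 without the 2 most extreme animals and ran from -0.376 to 0.018 without single animals. Tac1 with Tacr1 was 0.107 as Spearman's rho, 0.058 with the striatal score, 0.070 without the 3 arrays and 0.157 without the 2 extreme animals (-0.138 to 0.132 without single animals). Tac3 with Tacr3 was -0.056 as rho, -0.019 with cyclic loess, -0.018 with the cortical and -0.049 with the oligodendrocyte score, and -0.126 without the 2 extreme animals (-0.204 to 0.098 without single animals). Without single animals Tac1 with Tacr3 ran from -0.438 to -0.189 and Tacr1 with Tacr3 from 0.259 to 0.517. Under the other settings they ran from -0.454 (without the 3 arrays) to -0.051 (without the 2 extreme animals), and from 0.150 (without the 2 extreme animals) to 0.485. The cause was not tested. Tac1, Tac3 and Tacr3 have no other probe set. No paired analysis was possible because no animal number occurs in both groups.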
